A study of Mus musculus with 18 samples.

Results

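Enteroids grown from the duodenal crypts of mice labelled Mtgr1-/- were profiled by bulk RNA sequencing at day 1 and again at day 3 of culture, 24 and 72 hours after plating. Every library with this genotype label and culture stage was used, which gave 6 of the 18 libraries of the study, 3 at day 1 and 3 at day 3. The other libraries were crypts of both genotypes and the matching wild-type (Mtgr1+/+, WT) enteroids. The Mtgr1-/- mice lack the gene in all tissues, and both genotypes came from young adult, age-matched littermates of either sex. Crypts of each mouse were isolated once and divided over the time points, so day 1 and day 3 were compared within each of the 3 mice. All cultures grew in Matrigel under medium with EGF, noggin and R-spondin. Each library held all the cells of a culture at its time point, including any that were dying, so fewer cells of a type and less RNA per cell cannot be told apart.

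MTGR1, encoded by Cbfa2t2, is a transcriptional corepressor without DNA binding of its own that brings histone deacetylases to sequence-specific factors. In the small intestine, stem cells at the crypt base renew the epithelium, Paneth cells beside them supply niche factors and antimicrobial peptides, and absorptive enterocytes line the villus. When crypts are placed in culture, the epithelium closes into a sphere, passes through a state with genes of injured and fetal gut, and then forms buds in which stem and Paneth cells reappear.

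The 6 libraries held between 22900995 and 29658169 reads on the 16414 genes compared. Values below are renormalized counts, that is, reads scaled so that each library was equivalent to 25891042 reads. Cbfa2t2 stood at 1172, 1010.5 and 788 at day 1 and at 846, 942 and 732 at day 3 in mice 1, 2 and 3, against 776, 700.1 and 741 in the WT libraries of day 1. The tables sum all transcripts of a gene, so this level does not check the deletion, and genotypes are given as labelled. All 12 epithelial markers were tested, and Epcam, an epithelial adhesion molecule, was at 32232, 27661 and 32012 at day 1 and 25354, 26441 and 27064 at day 3. Of 21 stromal and vascular markers 4 reached the mean of 10 needed for testing, and the fibroblast collagen Col1a1 stayed at 4.29 or less. Of 21 immune cell markers 12 were tested, and of the 18 in the tables none was at 0 in all 6 libraries. The sum over these 18 was 1359, 714 and 1826 at day 1 and 841, 1147 and 1954 at day 3, and the leukocyte antigen Ptprc was at 11.8, 15.2 and 187 and then 3.24, 7.67 and 123, highest in mouse 3 at both times. No marker of these 3 lists passed the test between days.

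Between day 1 and day 3 the enteroids labelled Mtgr1-/- gained transcripts of basement membrane collagens (Col4a1 and Col4a2), of the receptor Lrp2 and of the stem cell glycoprotein Olfm4. They lost transcripts of the prolactin-family proliferins and of genes such as the cytochrome P450 Cyp2c29 and the zinc importer Slc39a4. In WT enteroids Lrp2 (log2 difference 2.01) and Olfm4 (1.20) also rose, and Cyp2c29 (-1.57) and Slc39a4 (-0.90) also fell. The WT changes of Col4a1 (0.88) and Col4a2 (0.76) did not pass the test. Of 12402 genes tested in the Mtgr1-/- libraries, 93 (0.750%) differed at an adjusted p under 0.05 in the paired limma test. Of these, 65 (0.524%) were higher and 28 (0.226%) were lower at day 3. The smallest change among them was -0.90 on the log2 scale (Enpp1), and 58 rises and 25 falls were 2-fold or more. The libraries of the days did not overlap for 62 of the 65 rises and all 28 falls. Over all genes tested, 14.7% were without overlap and higher, and 14.3% were without overlap and lower. The median log2 difference of all genes tested was 0.02. Fold changes are on the scale of log2(renormalized count + 1), which understates the change of low genes.

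Mouse 2 changed less than mice 1 and 3, and this bears on every count. The log2 differences of all genes tested had an SD of 0.734 in mouse 1, 0.493 in mouse 2 and 0.725 in mouse 3. Across genes, which are not independent replicates, the changes of mice 1 and 3 correlated at 0.743, while those of mouse 2 correlated at 0.327 and 0.333 with them. Mouse 2 moved against both other mice in 41.7% of genes. Without mouse 2, the same test on the remaining pairs called 6520 of 12465 genes (52.3%), of which 3214 (25.8%) were higher and 3306 (26.5%) lower. All 93 genes were among them, but they had been called from the same mice 1 and 3. Leaving out the mouse that departed most lowers the spread between mice, so more genes pass. The counts without mouse 2, here and below, describe mice 1 and 3 and are not separate support. The number of genes passing was 188 without mouse 1 and 367 without mouse 3. A fit that shared its spread with the 6 WT enteroid libraries called 1303 genes (10.5%), 721 higher (5.81%) and 582 lower (4.69%), and held 91 of the 93.

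**Figure D1:**
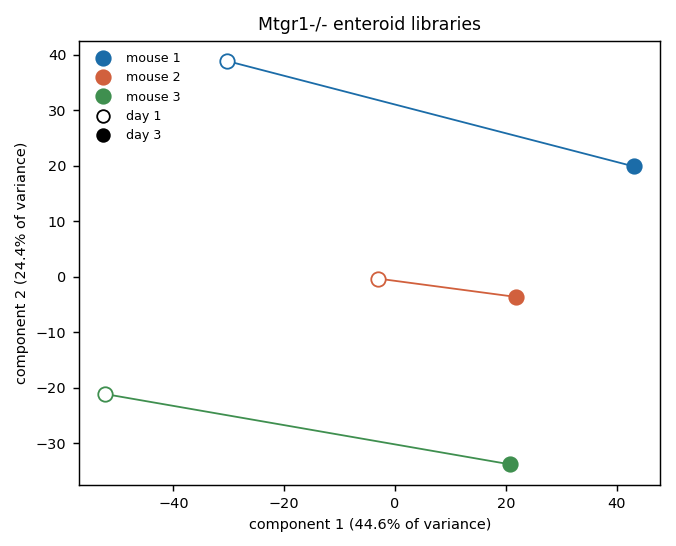
Position of the 6 Mtgr1-/- enteroid libraries on the first 2 principal components of log2 renormalized counts, with 1 colour per mouse, open circles for day 1 and filled circles for day 3, joined by mouse. Day 3 lay to the right of day 1 in each mouse along component 1 (44.6% of variance), and the shift was shortest in mouse 2, from -3.09 to 21.9.

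The largest rises were taken where the mean was 50 or more and the days did not overlap. They were those of Efemp1, Krt4, Lrp2, Col4a1, Col4a2, Olfm4, Nox1, Cav2, Sult1c2 and Mal. Efemp1, an extracellular glycoprotein of the fibulin family, was at 1.18, 18.1 and 1.10 at day 1 and 150.0, 192 and 151 at day 3 (log2 difference 5.21 ± 0.60 (SE), adjusted p = 0.031). Krt4, a keratin of stratified mucosae, went from 11.8, 45.6 and 4.41 to 454, 313 and 204 (log2 difference 4.38 ± 0.51 (SE), adjusted p = 0.031). Lrp2, the endocytic receptor megalin, went from 15.3, 20.9 and 4.41 to 290.3, 248 and 159 (log2 difference 4.18 ± 0.33 (SE), adjusted p = 0.0206). For each of these 3 genes the lowest day 3 library was above the highest day 1 library, and mouse 2 was the highest at day 1. Nox1, a superoxide-producing oxidase of the gut epithelium, rose 11.6-fold from 17.7, 36.1 and 23.1 to 297, 265 and 332 (adjusted p = 0.0206). Freshly isolated crypts of the same mice held 552, 554 and 179 for Nox1. Cav2, a caveolin, rose 9.38-fold from 33.0, 44.7 and 22.0 to 319, 323 and 283 (adjusted p = 0.0206). The membrane trafficking protein Mal rose 7.66-fold (adjusted p = 0.031) and the sulphotransferase Sult1c2 9.31-fold (adjusted p = 0.0286), both without overlap between days.

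**Figure D2:**
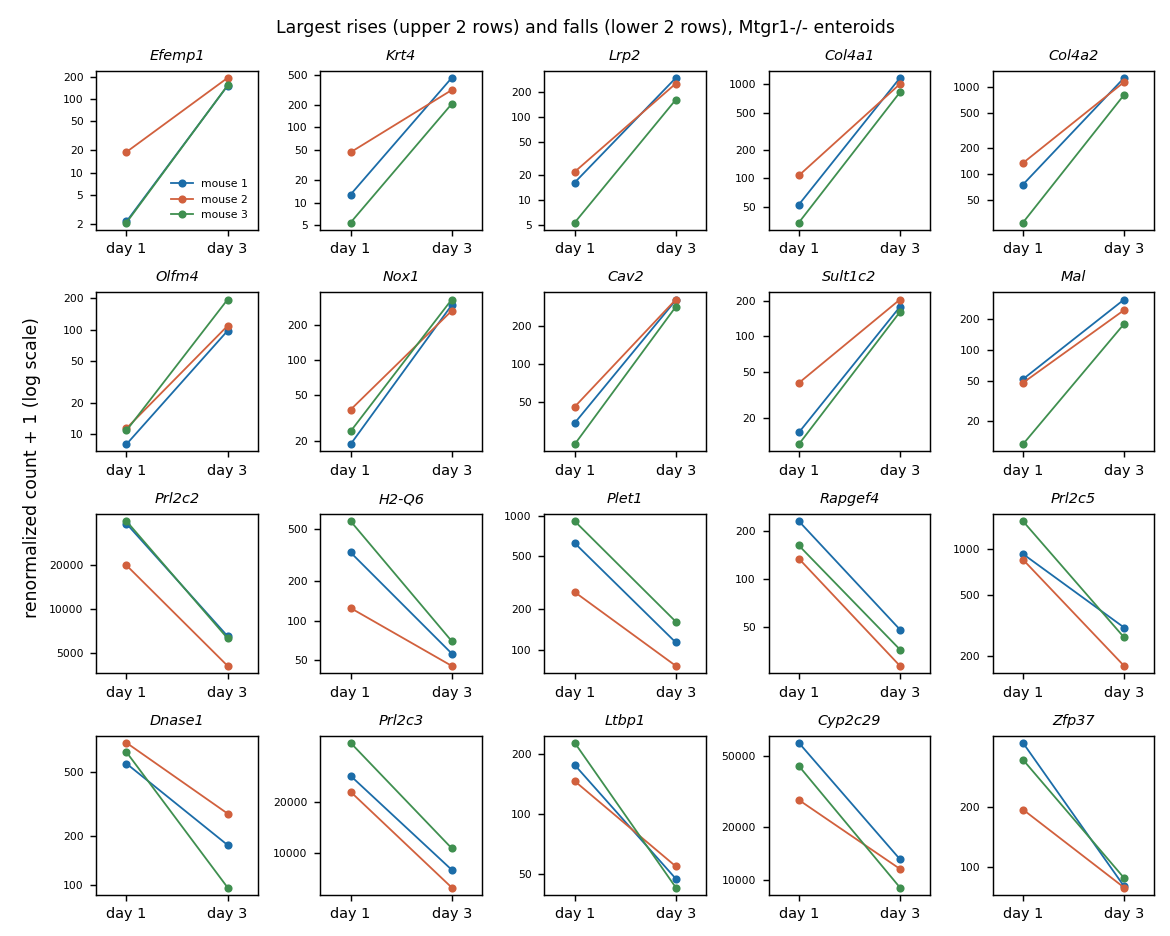
Renormalized count + 1 on a log scale at day 1 and day 3 for the 10 largest rises and the 10 largest falls by the naming rule, with 1 line per Mtgr1-/- mouse (n = 3). The rule took only genes whose day 3 points lie wholly above or wholly below the day 1 points. Mouse 2 started nearest to the day 3 level for genes such as Efemp1 and Krt4.

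Col4a1 and Col4a2 encode the chains of the type IV collagen found in nearly all basement membranes, and the genes start head to head on chromosome 8. Col4a1 (minus strand, chr8:11198423-11312826) and Col4a2 (plus strand, chr8:11312805-11449287) have start sites at 11312826 and 11312805, so their transcripts overlap by 22 bases. The stretch around both starts is shown because the pair moved together (RefSeq, GRCm38.p6, chr8:11312777-11312854, plus strand). Capitals mark the bases shared by the first exons.
Col4a1 and Col4a2: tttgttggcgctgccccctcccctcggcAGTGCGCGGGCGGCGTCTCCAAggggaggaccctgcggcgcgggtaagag
Col4a1 was at 51.8, 106 and 33.1 in mice 1, 2 and 3 at day 1 and at 1163, 1002 and 819 at day 3 (log2 difference 4.09 ± 0.29 (SE), adjusted p = 0.0206). Col4a2 was at 74.2, 132 and 26.4 and then 1270.3, 1136 and 810.0 (log2 difference 4.02 ± 0.33 (SE), adjusted p = 0.0206). Both genes were high in every day 3 library and low in every day 1 library, and the freshly isolated crypts of the same mice held 2.03, 3.09 and 4.38 for Col4a1. In WT enteroids Col4a1 was at 41.4, 25.7 and 32.0 at day 1 and 73.3, 24.8 and 119.7 at day 3, and the change differed between genotypes by 3.21 ± 0.53 (SE), adjusted p = 0.0265. That difference did not pass without Mtgr1-/- mouse 1 or 3 or without WT mouse 1 or 2, where its adjusted p reached 0.151.

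The extracellular matrix and integrin genes had a median log2 difference of 0.42. Of 31 tested, 4 rose and none fell, against 0.524% and 0.226% of all genes. Beside the collagens the rises included Timp2, an inhibitor of matrix metalloproteinases. Timp2 went from 2.36, 1.90 and 5.51 to 89.6, 50.8 and 37.5 (log2 difference 3.83 ± 0.51 (SE), adjusted p = 0.0431), without overlap between days. The laminin chains Lama5 (from 598, 683 and 314 to 1805, 1114 and 905, adjusted p = 0.0572) and Lamb1 (from 5.89, 5.70 and 1.10 to 25.9, 17.3 and 25.7, adjusted p = 0.115) were higher in 3 of 3 mice without passing. Fn1, fibronectin, was at 1365, 260.5 and 658 and then 441, 386 and 333 (adjusted p = 0.349), higher at day 3 in mouse 2 and lower in the others. Without mouse 2, 17 of 32 list members tested were higher and 10 were lower, against 25.8% and 26.5% of all genes in that fit. Outside the list, thrombospondin Thbs1 rose 2.78-fold (adjusted p = 0.0486, 0.054 without mouse 1). Igfbp7, a secreted binding protein, went from 1.18, 0 and 0 to 30.2, 27.8 and 23.6 (adjusted p = 0.031).

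The revival and fetal-like genes mark regenerating crypts and fetal spheroids. Of 26 tested, 4 rose and none fell, against 0.524% and 0.226% of all genes. The median was 0.01, between -0.01 and 0.13 over the other scalings. Clu (clusterin, chr14:65968483-65981547), which marks revival stem cells, was at 8571, 7917 and 2838 at day 1 and 29401, 19686 and 18457 at day 3 (log2 difference 1.93 ± 0.27 (SE), adjusted p = 0.0471). All day 3 libraries exceeded all day 1 libraries, and mouse 3 was lowest at both times. Anxa8, an annexin, rose from 153, 239 and 74.9 to 652, 814 and 461 (log2 difference 2.15 ± 0.20 (SE), adjusted p = 0.0249). Msln, mesothelin, rose 1.97-fold from 4912, 4722 and 2709.7 to 8742, 9433 and 5846 (adjusted p = 0.0431, 0.0967 without mouse 3). Spp1, osteopontin, was at 0, 0 and 3.31 and then 15.1, 15.3 and 37.5 (adjusted p = 0.0458), too few reads at day 1 for a fold. The EGF receptor ligands Areg (log2 difference -1.07 ± 0.17 (SE), adjusted p = 0.0579) and Ereg (log2 difference -1.14 ± 0.18 (SE), adjusted p = 0.0579) were lower in 3 of 3 mice without passing. The count without mouse 2 was 10 higher and 12 lower of 26, against 25.8% and 26.5% of all genes in that fit.

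Crypt base stem cell genes had a median log2 difference of 0.41 over 29 tested, and 14 were higher in 3 of 3 mice against 22.0% of all genes. In WT enteroids the median over the same 29 genes was 0.40. The difference in change between genotypes passed the test for 1 of them. Olfm4 (chr14:79984081-80023139), a secreted glycoprotein that marks crypt base columnar cells, passed and was at 7.07, 10.5 and 9.92 at day 1 and 97.1, 108 and 194 at day 3 (log2 difference 3.67 ± 0.31 (SE), adjusted p = 0.0206). The days did not overlap. The day 3 level was still far under that of WT enteroids, where Olfm4 was at 76488, 70972 and 62374 at day 3. Freshly isolated crypts of the Mtgr1-/- mice held 553, 320 and 144 for Olfm4. Lgr5, the Wnt-amplifying receptor of the same cells, was at 77.7, 97.9 and 58.4 and then 99.3, 72.9 and 65.4 (log2 difference 0.03 ± 0.25 (SE), adjusted p = 0.952), with overlap between days. In WT enteroids Lgr5 rose (log2 difference 1.07, adjusted p = 0.0175). Its difference in change between genotypes did not pass (-1.04, adjusted p = 0.178). Ascl2, a stem cell transcription factor, was at 91.9, 66.5 and 87.1 and 150.0, 66.2 and 106 (log2 difference 0.33 ± 0.23 (SE), adjusted p = 0.437). Gkn3, a gastrokine, was at 2.36, 9.51 and 3.31 and then 43.2, 30.7 and 39.7 (adjusted p = 0.0694). Without mouse 2, 18 of 28 tested were higher and none lower, against 25.8% and 26.5% of all genes in that fit. With the spread shared with WT 11 were higher and none lower, against 5.81% and 4.69% of all genes.

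Wnt target and Notch genes were mostly higher at day 3 without any member passing. Of 16 Wnt targets the median was 0.44, and of 13 Notch genes 0.59, which ranged from 0.31 to 0.66 over the other scalings. Axin2, a feedback inhibitor of Wnt signalling, was at 286, 253 and 241 and 623, 312 and 501, without overlap (log2 difference 0.82 ± 0.20 (SE), adjusted p = 0.122). Sox9, a transcription factor of stem and Paneth cells, was at 353, 426 and 343 and 901, 557 and 785, also without overlap (log2 difference 0.98 ± 0.21 (SE), adjusted p = 0.102). Jag2, a Notch ligand, was at 44.7, 125 and 24.2 and 241, 255 and 139 (log2 difference 1.97 ± 0.33 (SE), adjusted p = 0.0633). Mouse 2 had the smallest median in both lists, 0.09 for Wnt targets and 0.13 for Notch genes. Without it, 11 of 15 Wnt targets and 8 of 13 Notch genes were higher, and 1 of each was lower. Of all genes in that fit 25.8% were higher and 26.5% lower.

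Paneth cell genes had the highest median of the 48 lists, 1.31 over 26 genes tested, with 16 higher in 3 of 3 mice against 22.0% of all genes. Of the 26, 3 rose, against 0.524% of all genes. Only 2 were higher at day 3 without overlap between days, against 14.7% of all genes. Over the 29 list genes tested in both genotypes, the median change was 0.52 in WT and 1.47 in the Mtgr1-/- libraries. The difference between genotypes passed as positive for 3 of these 29, against 1.26% of all genes. The summed level of the 30 list genes in the tables did not follow the median. It was 6850.1, 20666 and 13325 at day 1 and 5042, 20919.5 and 8777 at day 3, lower in mice 1 and 3. Ang4, an antimicrobial ribonuclease, was at 50.6, 240.5 and 98.1 and then 196, 769.9 and 370.1 (log2 difference 1.84 ± 0.17 (SE), adjusted p = 0.0249). Reg4, a lectin of secretory cells, was at 22.4, 99.8 and 37.5 and 91.7, 254 and 194 (log2 difference 1.89 ± 0.26 (SE), adjusted p = 0.0471). Both rose in every mouse, yet the days overlapped because mouse 2 was highest at both times. Nupr1, a stress-induced chromatin protein, rose from 30.6, 65.6 and 16.5 to 140.3, 186 and 126 without overlap (log2 difference 2.17 ± 0.31 (SE), adjusted p = 0.0486). The matrix metalloproteinase Mmp7, which activates defensins, was at 18.8, 141 and 13.2 and 137, 267 and 189.9 (adjusted p = 0.0953), and lysozyme Lyz1 at 267, 2030.4 and 542 and 399, 2458 and 713 (adjusted p = 0.166).

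The alpha-defensins, a family of near-identical peptides whose reads cannot be assigned singly with certainty, were summed over 24 genes. The sums were 159, 11994 and 994 at day 1 and 1291, 13301 and 3857 at day 3. The log2 differences of the sum were 3.01, 0.15 and 1.96 in mice 1, 2 and 3. Mouse 2 at day 1 already stood above mice 1 and 3 at day 3. The same 24 genes summed to between 55224 and 100579 in the WT libraries of day 1. Of all Paneth genes, 2 were lower in 3 of 3 mice: the lectin Reg3g (log2 difference -2.34 ± 0.41 (SE), adjusted p = 0.0684) and the lipase Pnliprp2 (log2 difference -1.40 ± 0.32 (SE), adjusted p = 0.113). Without mouse 2, 16 of 24 tested were higher and 2 lower, against 25.8% and 26.5% of all genes in that fit.

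Other rises were of genes with varied roles. Tmigd1, an adhesion molecule of brush border enterocytes, went from 41.2, 48.5 and 13.2 to 161, 326 and 118 (log2 difference 2.58 ± 0.28 (SE), adjusted p = 0.0302). Tmprss15, enteropeptidase, which activates trypsinogen, rose 3.48-fold (adjusted p = 0.0486, 0.0644 without mouse 1). Tnfrsf11b, the decoy receptor osteoprotegerin, rose 5.19-fold from 28.3, 37.1 and 19.8 to 174, 142 and 129 (adjusted p = 0.03). Wfdc2, a secreted protease inhibitor, rose 4.42-fold (adjusted p = 0.033), and Cyp1b1, a cytochrome P450, 4.41-fold (adjusted p = 0.0427). Nat8l, which makes N-acetylaspartate, had the largest fitted rise. It was at 0, 0.951 and 2.20 at day 1 and at 110.1, 70.9 and 69.7 at day 3 (log2 difference 5.49 ± 0.54 (SE), adjusted p = 0.0249), while WT libraries held 2.47 or less at both times.

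The falls included the proliferins, all 3 of which passed. Prl2c2, Prl2c3 and Prl2c5 are prolactin-related growth factor genes best known from placenta, and they lie together on chromosome 13 (chr13:12996125-13005383, chr13:12790816-12800079 and chr13:13182715-13191923). Their coding sequences are alike, so the split of reads between them is uncertain and the sum is the firmer value. The sum over the 3 genes was 68543, 44006 and 87177 at day 1 and 14743, 10453 and 17205 at day 3. The log2 differences of the sum were -2.22, -2.07 and -2.34 in mice 1, 2 and 3, and the days did not overlap. Singly, Prl2c2 fell 5.76-fold (adjusted p = 0.0206), Prl2c5 4.42-fold (adjusted p = 0.0249) and Prl2c3 3.85-fold (adjusted p = 0.0206). In WT enteroids the sum was between 55.4 and 239 at day 1 and between 14.1 and 84.0 at day 3.

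The remaining large falls were of H2-Q6, Plet1, Rapgef4, Dnase1, Ltbp1, Cyp2c29 and Zfp37. Plet1, a surface protein named for its expression in placenta, went from 623, 268 and 909 to 112, 74.8 and 161 (log2 difference -2.26 ± 0.20 (SE), adjusted p = 0.0227). Rapgef4, the cyclic AMP-responsive exchange factor EPAC2, fell 4.61-fold (adjusted p = 0.0249), and Ltbp1, which binds latent TGF-beta, 3.76-fold (adjusted p = 0.0445). Dnase1, which degrades extracellular DNA, went from 564, 759.5 and 664 to 176, 276 and 95.5 (log2 difference -1.97 ± 0.27 (SE), adjusted p = 0.0458), and the zinc finger gene Zfp37 fell 3.74-fold (adjusted p = 0.0427). None of these overlapped between days, which the naming rule required. In WT the log2 differences were -0.89 (H2-Q6), -3.05 (Plet1), -2.18 (Rapgef4), -0.01 (Dnase1), -0.46 (Ltbp1), -1.57 (Cyp2c29) and -1.28 (Zfp37). For none of them did the difference in change between genotypes pass the test.

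Of 34 retinoid and xenobiotic enzyme genes, 2 fell and 1 rose, against 0.226% and 0.524% of all genes. The median was -0.48, between -0.50 and -0.27 over the other scalings. Cyp2c29, a P450 of drug and arachidonic acid metabolism, went from 58908, 28196 and 43704 to 13138, 11597 and 9124 (log2 difference -1.90 ± 0.25 (SE), adjusted p = 0.0427). Cyp1a1, the classic target of the aryl hydrocarbon receptor, went from 2229, 474 and 1124 to 471, 208 and 404 (log2 difference -1.63 ± 0.22 (SE), adjusted p = 0.0431), opposite to Cyp1b1. In WT enteroids the log2 differences were -1.57 for Cyp2c29, -3.40 for Cyp1a1 and -0.71 for Cyp1b1. The difference in change between genotypes passed the test for Cyp1b1 alone of these. Over 11 Cyp2c genes, which share sequence, the sum changed by -1.49, -0.44 and -1.08 in mice 1, 2 and 3. Without mouse 2, 4 of the 34 enzyme genes were higher and 26 lower, against 25.8% and 26.5% of all genes in that fit.

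Further falls were of single genes. Cpe, carboxypeptidase E of the hormone-processing pathway, went from 6907, 4124 and 5901 to 1969.6, 1685 and 1617 (log2 difference -1.66 ± 0.15 (SE), adjusted p = 0.0249). It was the sole call among 9 enteroendocrine genes tested of 32 listed, and the endocrine marker Chga was at 8.24, 21.9 and 25.3 and 7.55, 47.0 and 42.9. Slc39a4, the intestinal zinc importer, fell 2.50-fold (adjusted p = 0.031), and Slc7a11, the cystine transporter, 2.10-fold (adjusted p = 0.0291). Wnt4, a Wnt ligand, went from 2057, 1123 and 2334 to 727, 585 and 723 (log2 difference -1.38 ± 0.17 (SE), adjusted p = 0.0379). Gsn, the actin-severing gelsolin, fell 2.74-fold (adjusted p = 0.0431), and the phospholipase-like Pnpla7 2.87-fold (adjusted p = 0.029). Fkbp5, a glucocorticoid-induced chaperone, fell 2.18-fold (adjusted p = 0.0427) and the circadian factor Arntl 1.90-fold (adjusted p = 0.0489, 0.106 without mouse 1). In WT enteroids the log2 differences were -0.30 (Cpe), -0.90 (Slc39a4), -1.89 (Slc7a11), -0.47 (Wnt4), -1.99 (Gsn), 0.37 (Pnpla7), -0.79 (Fkbp5) and -0.22 (Arntl). The difference in change between genotypes passed the test for Cpe, Slc7a11 and Pnpla7 alone of these.

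Interferon response genes had the lowest median of all lists, -1.53 over 31 genes tested, but none passed the test in the 3 mice. The medians by mouse were -1.85, -0.46 and -2.03, and 25 of the 31 were lower in 3 of 3 mice against 19.9% of all genes. These genes are switched on by the factor ISGF3 through a promoter element whose core reads GAAANNGAAA. Stretches of 3 RefSeq promoters (GRCm38.p6) are shown because these genes were among the members with the largest differences. They are Isg15 (chr4:156200845-156200926, minus strand), Ifit1 (chr19:34640755-34640843, plus strand) and Ifit3 (chr19:34583343-34583446, plus strand). Each is written 5′ to 3′ on the strand of its gene, and capitals mark the matches to the core on either strand.
Isg15: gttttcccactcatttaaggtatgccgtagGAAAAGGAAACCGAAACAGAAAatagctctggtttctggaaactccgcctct
Ifit1: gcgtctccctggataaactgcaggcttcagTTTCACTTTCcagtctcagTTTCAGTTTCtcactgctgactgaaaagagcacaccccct
Ifit3: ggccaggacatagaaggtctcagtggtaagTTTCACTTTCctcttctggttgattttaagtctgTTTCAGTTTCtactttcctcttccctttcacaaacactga
Isg15 held 3 overlapping matches, from 78 to 57 bases before its start, and Ifit1 and Ifit3 held 2 each. In windows of 250 bases before to 50 after the start, 16 of the 24 list members with a promoter entry held the core (66.7%), against 1079 of 27025 genes (3.99%). In the MHC and antigen presentation list it was in 2 of 15 (13.3%). The interferon list is one of genes known for this regulation, so its share is background and not a result of these data. A match is a description of the sequence and not a measured binding site.

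Isg15, a ubiquitin-like modifier, was at 1909, 537 and 4054 at day 1 and 326, 283 and 576 at day 3 (log2 difference -2.09 ± 0.35 (SE), adjusted p = 0.0634). Ifit3, a partner of Ifit1, was at 564, 170.2 and 1473 and 65.8, 74.8 and 156 (log2 difference -2.50 ± 0.40 (SE), adjusted p = 0.0579). Ifit1, which binds RNA without a fully methylated cap, was at 2485, 791 and 4382 and 423, 583 and 874 (log2 difference -1.77 ± 0.39 (SE), adjusted p = 0.105). All 3 genes were lower in every mouse, and mouse 2 was the lowest at day 1. Cxcl10, an interferon-induced chemokine, was at 27.1, 12.4 and 29.8 and 4.32, 4.79 and 1.07 (adjusted p = 0.118). Without mouse 2, 27 of 31 were lower and none higher, against 26.5% and 25.8% of all genes in that fit. With the spread shared with WT 21 were lower, against 4.69% of all genes. Over the other scalings the median stayed between -1.55 and -1.46. In WT libraries the median of the list was -1.29, and no member passed the test of a difference in change between genotypes.

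MHC and antigen presentation genes had a median of -0.75 over 21 tested, with medians of -1.05, -0.12 and -0.73 in mice 1, 2 and 3 and none past the test. In WT enteroids the median of the list was -0.91, and no member passed the test of a difference in change between genotypes. H2-Q6, a class Ib gene outside the list, fell from 329.7, 124 and 572 to 55.0, 44.1 and 68.7 (log2 difference -2.36 ± 0.32 (SE), adjusted p = 0.0452). It shares sequence with its neighbours, and the sum over 7 H2-Q genes changed by -0.98, 0.23 and -0.89. Psmb8, an immunoproteasome subunit, was at 2193, 1448 and 2849.6 and 874, 1267 and 1272 (adjusted p = 0.125). Cd74, the class II invariant chain, was at 436, 841 and 1155 and 104, 348 and 1499.8, higher at day 3 in mouse 3 alone, which also held the most Ptprc. The part of immune cells in this was not tested. Without mouse 2, 15 of the 21 were lower and none higher, against 26.5% and 25.8% of all genes in that fit.

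**Figure D3:**
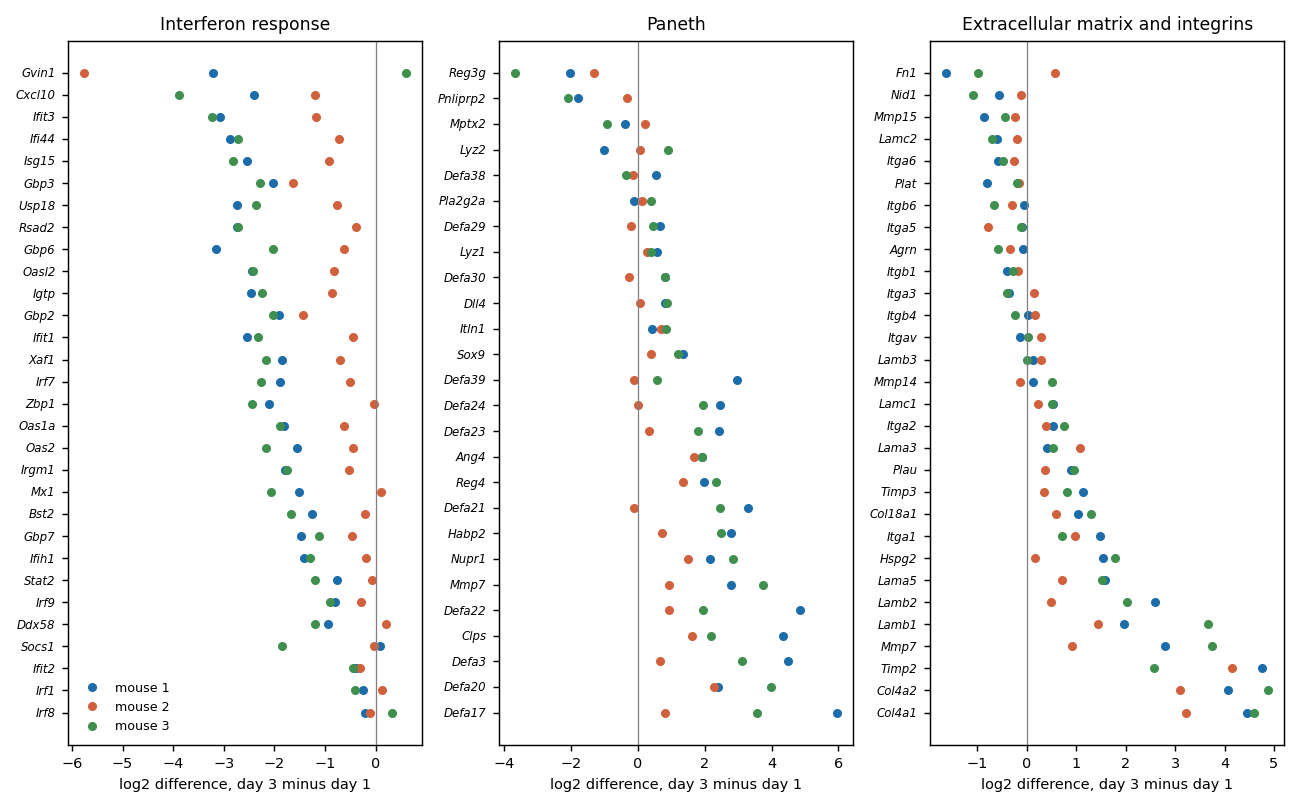
Log2 difference between day 3 and day 1 in each Mtgr1-/- mouse for the tested members reported here of the interferon response, Paneth and extracellular matrix and integrin lists, with 1 point per mouse. Mouse 2 lies nearest to 0 for most interferon and Paneth genes, while Col4a1, Col4a2 and Timp2 are above 2 in all 3 mice.

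Enterocyte genes were lower at day 3 in mice 1 and 3 and showed no common direction in mouse 2. The fat absorption list had a median of -0.65 over 25 genes (-0.66 to -0.43 over the other scalings), from medians of -1.01, 0.20 and -0.96 in the 3 mice, and none passed. Apoa4, an apolipoprotein of chylomicrons, was at 138676, 45796 and 131666 at day 1 and 42886, 64339.5 and 41203 at day 3 (log2 difference -0.96 ± 0.49 (SE), adjusted p = 0.311). Apoa1, its partner in lipid export, was at 111851, 81509 and 141368 and 43251, 93628 and 43947 (log2 difference -0.95 ± 0.44 (SE), adjusted p = 0.276). Both were lower in mice 1 and 3 and higher in mouse 2. Peptidases and amino acid transporters (median -0.60 over 23) and brush border genes (-0.55 over 26) were likewise lowest in mice 1 and 3, and Tmigd1 was the sole call among them. In WT enteroids the medians were also below 0, at -0.55 for fat absorption, -0.26 for peptidases and transporters and -0.34 for brush border genes. The difference in change between genotypes passed for 1 peptidase or transporter gene and for no fat absorption or brush border gene. Vil1, the microvillus bundler villin, was at 51706, 40299.6 and 60396 and 24714, 33164 and 27129.5, without overlap (adjusted p = 0.168). Without mouse 2, 24 of 25 fat absorption genes and 23 of 26 brush border genes were lower, against 26.5% of all genes in that fit. The disaccharidase gene Sis departed from this, at 9582, 34735 and 20502 and then 21907, 95569.6 and 32391, higher in 3 of 3 mice (log2 difference 1.10 ± 0.23 (SE), adjusted p = 0.098).

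Cell cycle list medians differed in sign between mice. Mitosis genes had a median of 0.22 over 32, from 0.47 in mouse 1, -0.45 in mouse 2 and 0.65 in mouse 3. DNA replication (0.60, -0.34 and 0.52) and ribosome biogenesis genes (0.50, -0.34 and 0.61) showed the same split. Mki67, the proliferation antigen, was at 6563, 8785 and 5267 and 9557, 5891 and 7813 (log2 difference 0.18 ± 0.25 (SE), adjusted p = 0.686). Mcm2, a subunit of the replicative helicase, was at 1114, 1535 and 1002 and 2013, 1165 and 1686 (log2 difference 0.40 ± 0.25 (SE), adjusted p = 0.386). For both genes mouse 2 was the highest at day 1 and the lowest at day 3. No member of the 3 lists passed. Without mouse 2 all 32 mitosis genes were higher, against 25.8% of all genes in that fit. Myc, which drives ribosome production, was at 1508, 1758 and 1609.9 and 2424, 1567 and 2257 (adjusted p = 0.331), and the cell cycle inhibitor Cdkn1a at 5318, 3764 and 5846 and 2886, 3857 and 3445 (adjusted p = 0.21).

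**Figure D4:**
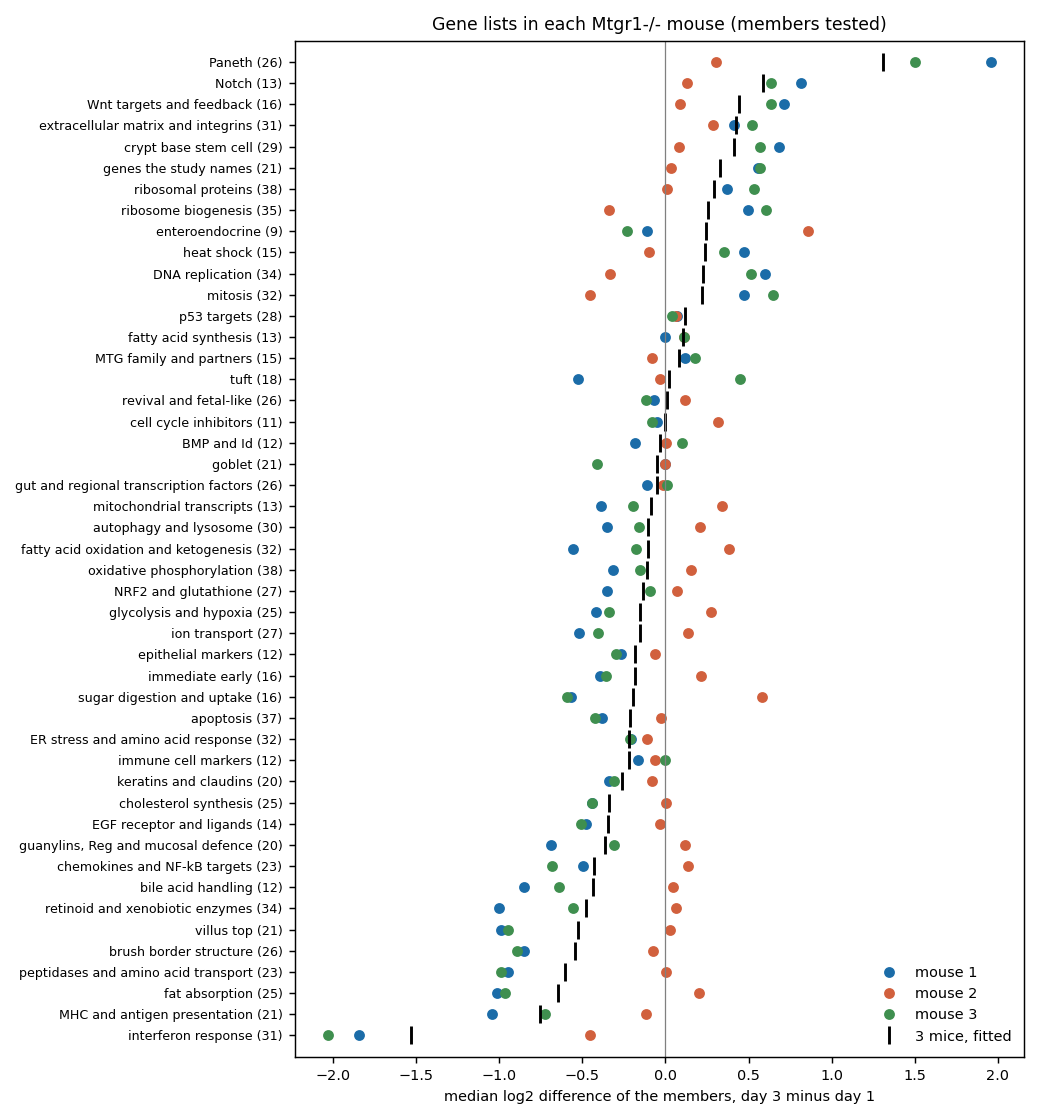
Median log2 difference between day 3 and day 1 over the tested members of each gene list in each Mtgr1-/- mouse (points) and in the paired fit (bars), with the number of members in brackets. Paneth genes are highest (1.31) and interferon response genes lowest (-1.53), and mouse 2 lies nearer to 0 than the others or on the opposite side of it in most lists.

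The change in these enteroids was then compared with that in the WT cultures over the same interval, in a fit of all 12 enteroid libraries. Of 12649 genes, 178 (1.41%) changed differently between the genotypes as labelled. In 159 (1.26%) the difference was positive, so the change was more positive in the Mtgr1-/- libraries, and in 19 (0.150%) it was negative. WT was lower at day 3 in 145 of the 159 and passed the test as a fall in 110, while the Mtgr1-/- libraries were higher in 117. Of the 93 genes that changed in the Mtgr1-/- libraries, 91 were tested in both genotypes and 35 changed differently, 30 of the rises and 5 of the falls. The 93 were picked from the same Mtgr1-/- libraries, so their share cannot be set against the 1.41% of all genes. The count of 178 became 86, 2620 and 103 without Mtgr1-/- mice 1, 2 and 3, and 25, 106 and 84 without WT mice 1, 2 and 3.

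Of 25 revival and fetal-like genes tested in both genotypes, 17 had a positive difference and none a negative one. Over all genes the shares were 1.26% and 0.150%. Over the 25 genes tested in both genotypes, the median change was -1.45 in WT and 0.0020 in the Mtgr1-/- libraries. The list member Clu is also among the genes that the study named from these samples. Anxa8 rose in the latter (2.15) and went from 126, 46.2 and 135 to 38.7, 17.4 and 72.4 in WT (difference 3.46 ± 0.30 (SE), adjusted p = 0.00178). Anxa10, another annexin, was at 1582, 1774 and 1601 and 1802, 2889.7 and 1745 in the Mtgr1-/- libraries and at 3401, 2133 and 2916 and 508, 306 and 689.8 in WT (difference 2.88 ± 0.23 (SE), adjusted p = 0.00133). Sprr1a, a cornified envelope precursor, went from 1626, 975 and 1418 to 167, 163 and 122 in WT, against 1464, 1219 and 1679 to 955, 1147 and 982 (difference 2.63 ± 0.27 (SE), adjusted p = 0.00438). For Anxa10 and Sprr1a the WT libraries of the days were far apart and those labelled Mtgr1-/- were close together.

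Among the single genes, the laminin chain Lama3 was at 894, 448 and 655 and 1190.4, 944 and 944 in the Mtgr1-/- libraries, against 219, 99.6 and 363 and 42.8, 20.7 and 33.1 in WT (difference 3.32 ± 0.34 (SE), adjusted p = 0.00438). Aqp8, a water channel, had the largest negative difference. It was at 142, 65.6 and 72.7 and 6.48, 23.0 and 5.36, lower in every Mtgr1-/- mouse, while WT was at 32.4, 26.7 and 9.02 and 102, 108 and 21.4, higher in every mouse (difference -4.68 ± 0.67 (SE), adjusted p = 0.0139). Cpe (-1.35 ± 0.19 (SE), adjusted p = 0.012) and Pnpla7 (-1.89 ± 0.22 (SE), adjusted p = 0.00666) also differed, and their WT changes were -0.30 and 0.37. The Olfm4 rise exceeded that of WT by 2.47 ± 0.31 (SE), adjusted p = 0.00751, from far lower counts. Of the 20 genes named for this difference, 2 passed in every alternative run, Lama3 among them, and 16 did not pass without WT mouse 1, Aqp8, Cpe and Pnpla7 among them.

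**Figure D5:**
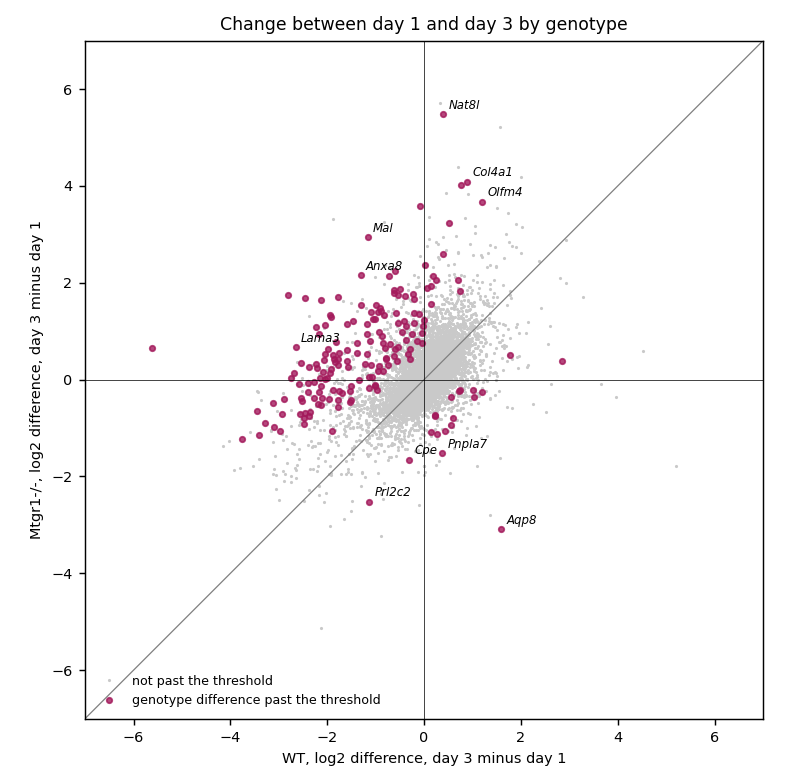
Log2 difference between day 3 and day 1 in WT (x axis) and in Mtgr1-/- enteroids (y axis), with 1 point per gene and the 178 genes whose change differed between genotypes in purple. Most of them lie above the diagonal on the left, where WT values were below 0, and Aqp8 lies below it (1.59 in WT, -3.09 in Mtgr1-/-).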

How the data were processed

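Bulk RNA was sequenced by the study from crypts, day 1 and day 3 enteroids of 3 Mtgr1-/- and 3 WT mice (TruSeq stranded mRNA, single reads). Reads were trimmed with fastp 0.20.0, quantified with Salmon 1.3.0 and analysed with DESeq2 1.26.0, per the labels and the study's methods. The gene IDs of all 16414 genes joined matched GENCODE M21 on GRCm38. The authors deposited 1 table per time point (17759, 17423 and 17612 genes), whose values are a normalized signal: gene counts divided by size factors set within that table. Each library is a separate mouse or a separate time point of one. Each table also holds the authors' mean, log2 fold change, standard error, test statistic, p-value and adjusted p-value between genotypes, which were not used. No sample column was left out (0 of another series).

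Each column was divided by its smallest value above 0, which gave whole reads for 100% of values (tolerance 0.01). Whole reads of the genes in all 3 tables were scaled by TMM over the 18 libraries. Genes with a mean of at least 10 over the libraries of a fit were tested on log2(renormalized count + 1) with limma 3.58.1 (trend, mouse as a block, two-sided, Benjamini-Hochberg over all genes tested, threshold 0.05) in R 4.3.3. The difference of the change between genotypes was fitted on the 12 enteroid libraries. Mouse numbers pair the libraries because the labels number the mice and, per the study's methods, the isolate of each mouse was divided over the days. Deviations of same-mouse libraries from their day's mean correlated at 0.482, 0.130 and 0.532. With 3 pairs an exact sign-flip test of a single value cannot go below p = 0.25, so p-values come from the fit across genes. The fits were also run on simulated data, in which the change between days was the same in every Mtgr1-/- mouse. A mouse that changed differently, as mouse 2 did, was not simulated, so that run does not check this setting.

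Alternatives were no block, a shared spread, other scalings, pseudocounts, filters and variance trend, the count tests of edgeR 4.0.16 and DESeq2 1.42.0 on the recovered reads, and leaving out each mouse. The list counts without mouse 2 were chosen after seeing the data. Genes were named as the 10 largest rises and 10 largest falls past the threshold (mean of at least 50, 3 of 3 mice in 1 direction, no overlap, predicted genes passed over), up to 3 per direction in each of 48 lists, those the study names and the 10 largest genotype differences in each direction. All other genes named in the text were chosen after their values were seen. Results for 4 genes are not reported here. The members and the lists were chosen with earlier results of these data known.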

Additional observations from a re-analysis of the deposited data

Results flagged for a closer look

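The change between day 1 and day 3 differed between the genotypes as labelled for 178 genes in the limma test of the difference itself (12 libraries, mouse as a block, adjusted p under 0.05). The values below are log2 differences of the change, Mtgr1-/- minus WT. Positive differences were found for Nat8l (5.10), Mal (4.10), Msn (3.48), Anxa8 (3.46), Lama3 (3.32), Aldh1a3 (3.32), Col4a2 (3.26), Ccl6 (3.22) and Col4a1 (3.21). Smaller positive differences were those of Anxa10 (2.88), Cyp1b1 (2.85), Cav2 (2.71), Sprr1a (2.63), Olfm4 (2.47), Tmprss15 (2.41), Thbs1 (2.39), Tnfrsf11b (2.36), Wfdc2 (1.96), Msln (1.90), Reg4 (1.84), Clu (1.78), Sis (1.49), Ang4 (1.10) and Slc7a11 (0.82). Negative differences were found for Aqp8 (-4.68), Pnpla7 (-1.89), Tnfsf10 (-1.49), Ces2a (-1.48), Pycr1 (-1.45), Xpnpep2 (-1.41), Rnf157 (-1.40), Prl2c2 (-1.40), Lrat (-1.39) and Cpe (-1.35). Slc7a11, the cystine transporter, fell in both genotypes, by more in WT (-1.89) than in Mtgr1-/- enteroids (-1.07). Prl2c2 was also lower at day 3 in WT, where it held 91.8, 37.0 and 104 renormalized counts at day 1. The split of reads between the proliferins is uncertain. Prl2c3 differed the other way (1.17) and Prl2c5 the same way (-1.32), and neither passed. The sum over the proliferins went from 232, 55.4 and 239 to 59.3, 14.1 and 84.0 in WT mice 1, 2 and 3. A genotype difference of that sum was not tested.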

How the results depend on the processing

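Of 93 genes past the threshold, the count became 76 with median-ratio scaling, 92 with the deposited values, 114 with a pseudocount of 8 and 68 with edgeR. It moved by more than 1.5 times to 1303 with the spread shared with WT, 56 with TMM over the 6 libraries, 53 with a pseudocount of 0.1, 18 without a filter, 41 with a mean of at least 50, 19 without the variance trend and 824 with DESeq2. With quantile normalization it was 8, of which 3 were higher and 5 lower, against 65 and 28. Leaving out each mouse gave 188 to 6520. Without the mouse as a block, 97 genes passed between days and 80 instead of 178 for the genotype difference. That difference was called for 360 genes with DESeq2, for 86 to 2620 without 1 Mtgr1-/- mouse and for 25 to 106 without 1 WT mouse. The cause of these moves was not tested.

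No named gene reversed. Of 45 named genes past the threshold between days, 5 passed in every alternative (Col4a1, Nox1, Cav2, Prl2c2 and Prl2c3), 37 did not pass with quantile normalization and 17 did not without the block. Spp1, Igfbp7 and Nat8l had 0 to 3 reads in each day 1 library, so depth limits the size of their change.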

Other observations

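No member of the goblet or tuft lists passed the test between days. The goblet list had a median log2 difference of -0.05 over 21 genes, between -0.31 and 0.02 over the other scalings. Tff3, a trefoil peptide of goblet cells, was at 303, 598 and 537 at day 1 and 248, 553 and 336 at day 3 (log2 difference -0.36 ± 0.17 (SE), adjusted p = 0.277), and the chloride channel regulator Clca1 at 555, 811 and 832 and 253, 799 and 351 (log2 difference -0.80 ± 0.25 (SE), adjusted p = 0.168). The tuft list had a median of 0.02 over 18 genes (-0.31 to 0.09 over the other scalings), with medians of -0.53, -0.03 and 0.45 in mice 1, 2 and 3, and the tuft marker Dclk1 was at 122, 105 and 48.5 and 82.0, 89.2 and 68.7. Chgb, a granin of endocrine cells, was at 45.9, 89.4 and 102 and 62.6, 221 and 232 (adjusted p = 0.125), higher in 3 of 3 mice, while Cpe fell.

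Cholesterol synthesis genes had a median of -0.34 over 25, between -0.36 and -0.13 over the other scalings. Of these, 11 were lower in 3 of 3 mice, against 19.9% of all genes, and none passed the test. The median was 0.02 in WT, and 0 of the 25 passed the test of a difference between genotypes. Msmo1, a sterol oxidase of the pathway, was at 16897, 13059 and 15978 and 8570.4, 10655 and 8673 (log2 difference -0.72 ± 0.19 (SE), adjusted p = 0.132). Scd1, the stearoyl-CoA desaturase, was at 8009, 2532 and 5499.8 and 14238, 22833 and 12121, without overlap (log2 difference 1.71 ± 0.43 (SE), adjusted p = 0.125), and mouse 2 had both the lowest day 1 and the highest day 3 level. Cdkn2a, the cell cycle inhibitor locus of p16 and Arf, was at 2.36, 2.85 and 2.20 and 7.55, 21.1 and 25.7 (adjusted p = 0.113). Ribosomal protein genes had a median of 0.29 over 38, between 0.28 and 0.51 over the other scalings. Without passing, 19 were higher in 3 of 3 mice, against 22.0% of all genes.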
